A study of Mus musculus with 2 samples.

Results

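The genes examined here encode proteins taken as coactivators and partners of CREM, a testis transcription factor of the CREB family. Among these proteins are coactivators, a motor protein that carries a coactivator, and germ cell versions of general transcription factors. The genes were chosen by name, with a rule that uses no measured value, but with earlier results of these data known. They are Fhl5, Kif17, Crebbp, Ep300, Crtc1, Crtc2, Crtc3, Gtf2a1lf and Tbpl1. Of these 9 genes, 8 had probes on the arrays, out of 17306 genes measured in all, and the arrays held no probe named for Tbpl1. The 8 genes had 215 of 474380 probes. Crosslinked chromatin of germ cells pooled from 5 testes of adult C57BL/6 males was immunoprecipitated with the CREM antibody sc-440 (Cy5) or with goat IgG (Cy3), which served as the negative control. Both precipitates were hybridised together to a pair of promoter arrays of different content, each 1 time and without a dye swap. The labels name no mutation and no treatment, and no animal lacking CREM was included. They also name no separation of germ cells by stage, so a value does not belong to a single stage. Since genomic DNA was measured, the cell type could not be checked against markers.

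In the testis, CREM switches on genes of haploid spermatids. In somatic cells a CREB family factor is activated by phosphorylation, which lets it bind the acetyltransferases CBP (Crebbp) and its relative encoded by Ep300, while CRTC proteins enter the nucleus and bind its DNA-binding domain. In spermatids CREM can instead be activated without phosphorylation by ACT, the LIM-domain protein encoded by Fhl5, and the kinesin encoded by Kif17 carries ACT out of the nucleus. Gtf2a1lf encodes a germ cell form of the TFIIA large subunit and Tbpl1 a relative of the TATA-binding protein needed for spermatid development. The values below say where DNA was recovered with the CREM antibody at the genes of these proteins; they do not measure the proteins or their RNA.

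The sequences shown first lie at the start of Fhl5, where its highest window is centred, and at the start of Kif17, where a probe covers a CREM recognition sequence. The Fhl5 stretch is the 250 bases before its more upstream RefSeq start (GRCm38.p6, chr4:25242853-25243102, minus strand), with the bases of the probe that had the highest ratio of all 8 genes in capitals. The Kif17 stretch is the 250 bases before its start (GRCm38.p6, chr4:138262001-138262250, plus strand), with the cAMP response element in capitals. This element, TGACGTCA, is the palindrome that CREB family factors bind, and its core is TGACG or, on the other strand, CGTCA.
Fhl5 upstream: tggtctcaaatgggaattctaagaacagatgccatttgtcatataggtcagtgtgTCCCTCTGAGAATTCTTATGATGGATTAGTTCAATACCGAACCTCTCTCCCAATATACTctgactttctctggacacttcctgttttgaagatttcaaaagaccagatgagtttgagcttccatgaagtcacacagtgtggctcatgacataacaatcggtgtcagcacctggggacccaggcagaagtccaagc
Kif17 upstream: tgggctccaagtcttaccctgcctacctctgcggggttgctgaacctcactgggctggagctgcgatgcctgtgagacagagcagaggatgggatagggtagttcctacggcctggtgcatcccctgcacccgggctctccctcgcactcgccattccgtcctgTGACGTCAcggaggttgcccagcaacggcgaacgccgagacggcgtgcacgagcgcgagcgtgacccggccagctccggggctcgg

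The Fhl5 stretch holds neither the element nor its core. Of the 300-base RefSeq promoters in the table (250 bases before and 50 after a start), 1.79% of 32851 hold the full element and 20.8% hold the core. The members had 9 such promoter entries, with 2 starts for Fhl5 and none for Crtc2, and only that of Kif17 held a core, which there is the full element with its first base at -86 from the start. Between these entries, GC content ran from 39.3% and 42.7% at the starts of Fhl5 to 82.0% at Crebbp, with 69.3% at Kif17. Matches are of letters only, and a promoter without one says nothing about CREM elsewhere in the gene.

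Among the 215 probe sequences themselves, 5 (2.33%) held the core, against 2.04% of all probes on array 1 and 2.09% on array 2. They are printed here, each as spotted with the core or full element in capitals, since they are the places on the arrays where a CREM recognition sequence of these genes was measured directly.
Fhl5 probe: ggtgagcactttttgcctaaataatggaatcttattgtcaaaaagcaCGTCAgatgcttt
Kif17 probe: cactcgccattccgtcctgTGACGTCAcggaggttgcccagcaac
Crebbp probe: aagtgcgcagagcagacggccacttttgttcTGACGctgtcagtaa
Crtc1 probe: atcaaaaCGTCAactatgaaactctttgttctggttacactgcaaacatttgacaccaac
Crtc2 probe: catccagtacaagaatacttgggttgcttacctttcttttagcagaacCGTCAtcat

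None of these 5 probes reached a log2 ratio of 1, which few probes do. Of all probes with a GC content below 55%, 9.87% on array 1 and 10.73% on array 2 reached it. At 55% GC or more, as at the Kif17 probe, the shares were 0.669% and 1.08%. With 5 probes, this count therefore says little about the recognition sequence. The ratio of CREM over IgG was 0.23 at the Fhl5 probe (mm9, chr4:25168630-25168689), where IgG was not well above background and the ratio becomes -0.34 with IgG raised to the lowest such signal. It was -1.11 at the Kif17 probe (chr4:137818061-137818105). It was -2.75 at the Crebbp probe (chr16:4214231-4214276), which was the lowest value of all probes of the 8 genes. The Crtc1 probe (chr8:72961770-72961829) had -0.15 and the Crtc2 probe (chr3:90060504-90060560) had -0.17. The Kif17 probe was the only one with the full element, which stands in 0.0616% of probes on array 1 and 0.051% on array 2.

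Neighbouring probes were read in threes, as windows. A window holds 3 probes, each starting no more than 500 bp after the one before, and takes the median of their log2 ratios. The highest window of a gene is given as its value. A gene was called when this reached 1, a 2-fold ratio, and the same count at -1 or less gives the IgG side. Of the 8 genes, 6 were called. On array 1 these were 3 of 5, where 33.3% of all genes were called, and on array 2 they were 3 of 3, where 35.6% of all genes were called. Fhl5 stood at 2.39, Ep300 at 1.39, Crtc2 at 1.36, Gtf2a1lf at 1.16, Crebbp at 1.05 and Kif17 at 1.01, while Crtc1 at 0.82 and Crtc3 at 0.19 were not called. The median over the 8 genes was 1.10, against 0.75 over all genes of array 1 and 0.78 over all genes of array 2. Genes with as many windows as these (14 to 26) were called at 36.7% and 38.4%. Of the 155 windows of the 8 genes, 18 (11.6%) reached 1, against 5.66% of all windows on array 1 and 6.32% on array 2. Neighbouring windows share probes, so the 18 are not separate observations, and 6 of them belong to Fhl5. Some of the 18, at Fhl5, Ep300 and Gtf2a1lf, rest on dim IgG signals and fall below 1 at their bounds. These shares were not recomputed at the bounds. Taking the highest window of each called gene, Crebbp alone had 3 probes whose CREM and IgG signals were both well above background, which held for 27.0% and 29.8% of called genes on the arrays.

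**Figure D1:**
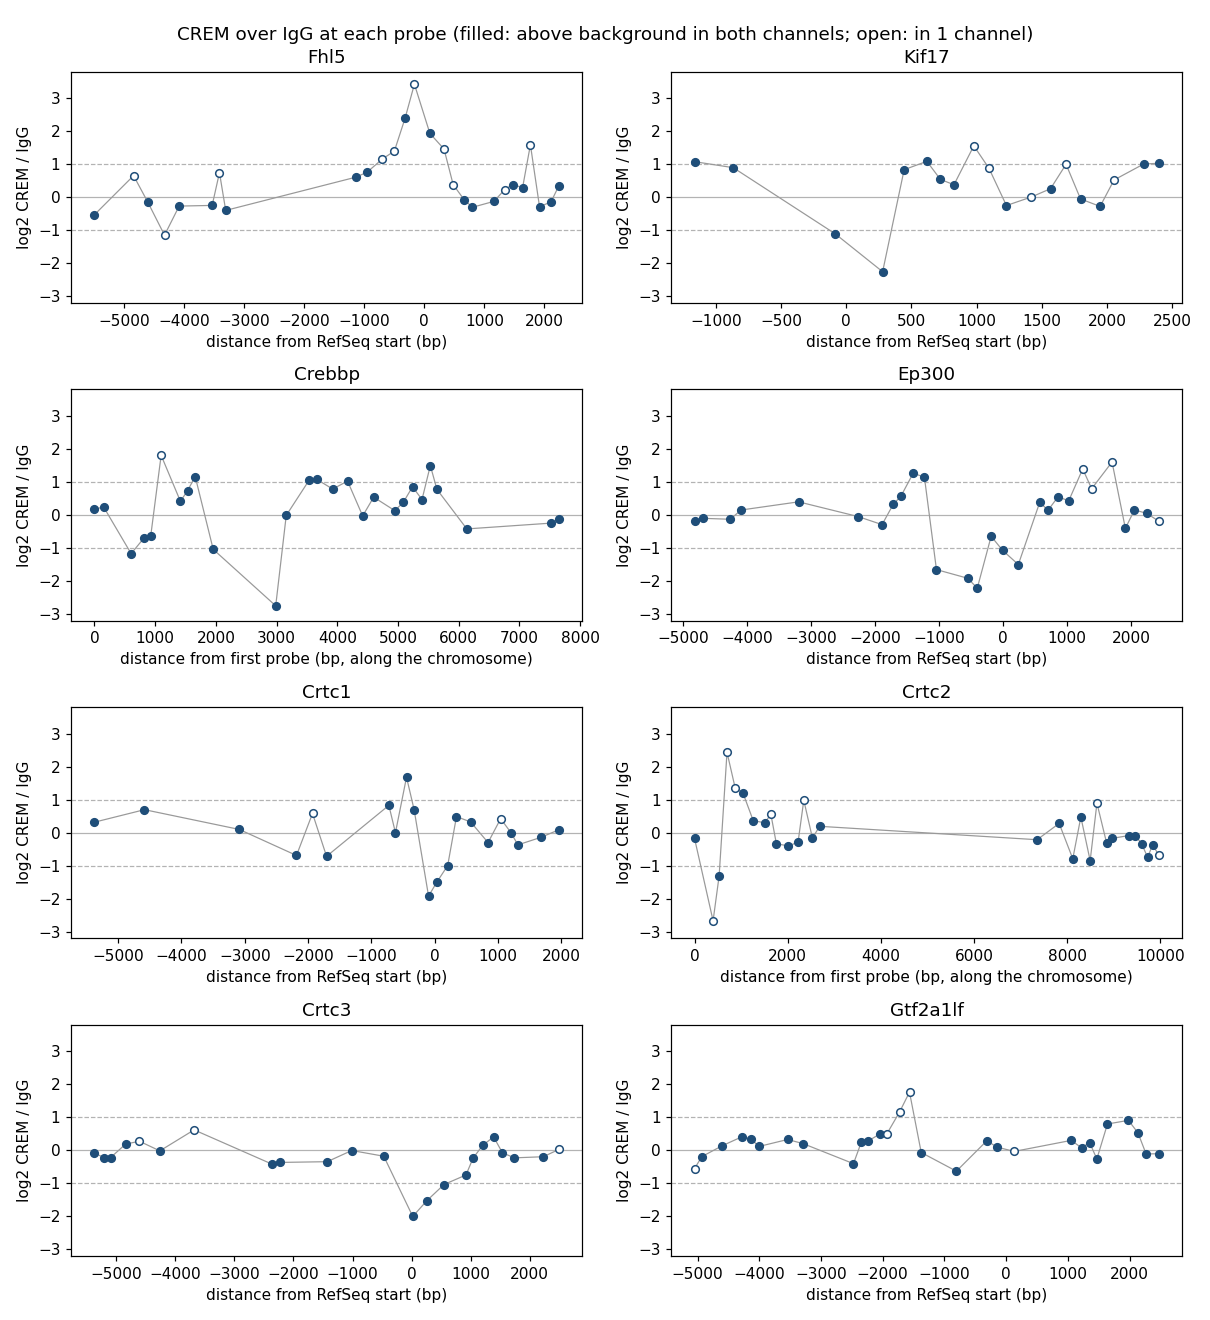
Log2 ratio of CREM over IgG (vertical axis) at each probe of the 8 genes, against distance in bp from the more upstream RefSeq start, negative being upstream; Crebbp and Crtc2, which had no start matched by a probe, are drawn along the chromosome from the first probe. Filled points are above background in both channels and open points in 1; dashed lines mark 1 and -1. Fhl5 peaks at its start, at 3.43, while Kif17, Ep300, Crtc1 and Crtc3 have probes below -1 near theirs.

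No array was repeated, so no test across samples and no p-value exists for any value here. The only repeated measurements were control spots, whose log2 ratios had a median SD of 0.27 over 18 control probes on array 1 and 0.33 over 21 on array 2. This spread does not cover that between precipitations. Fhl5 exceeded every other gene of the set by more than these SDs. Ep300, Crtc2, Gtf2a1lf, Crebbp and Kif17 lay between 1.39 and 1.01, a difference close to this spread, and their order is not resolved. IgG was well above background at 77.4% of probes on array 1 and 78.5% on array 2, and CREM at 96.3% and 95.5%. Of the 205 probes of the 8 genes that were used, 37 (18.05%) had an IgG signal not well above background, and for these a ratio is only a bound. A bound raises the dim channel to the lowest signal well above background, which is 305.6 for IgG on array 1 and 287.5 on array 2, and is given beside the ratio or window that rests on such a signal.

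Fhl5, the gene of the CREM coactivator ACT, had the highest value of the set. Its highest window (mm9, chr4:25169880-25170348) stood at 2.39, a 5.25-fold ratio, and was centred at -115 bp from the more upstream RefSeq start. On array 1, 2.09% of genes stood as high, and Fhl5 was the 181st of 8655. The probe at 25169880 had a processed signal of 1858 with CREM and 477 with IgG, a log2 ratio of 1.94 with a scanner error of 0.29. The probe at 25170136, whose bases are in capitals in the sequence printed above, had 2248 with CREM against 206 with IgG. That IgG signal was not well above background, so its measured 3.43 is a ratio of at least 7.23-fold (2.85 on the log2 scale). The probe at 25170293 had 1771 against 331, a log2 ratio of 2.39 with a scanner error of 0.32. The CREM signals of these 3 probes were alike and all were above every IgG signal in the window.

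The enrichment at Fhl5 formed a single hill. From 25169490 to 25171114, 9 neighbouring probes had log2 ratios of 0.39, 1.46, 1.94, 3.43, 2.39, 1.40, 1.16, 0.76 and 0.61 along the chromosome, with the highest of them next to the start. Around the highest window, 0.39, 1.46, 1.40 and 1.16 had dim IgG signals and become -0.27, -0.82, 0.9988 and 0.38 at their bounds. Called windows covered 1495 bp in 6 overlapping windows. This length was reached by 6.19% of CREM-side regions on array 1, with a median of 687 bp over all of them. The windows at its 2 ends take the dim probes of 1.46 and 1.16 as their medians, and the window of 2.39, 1.40 and 1.16 takes the dim 1.40. Each of these windows falls below 1 at its bounds. Neither the length nor the number of windows was recomputed at the bounds, where both would be smaller. Genes with 6 or more called windows made up 5.75% of array 1 and 6.96% of array 2. The second RefSeq start of Fhl5 lies 586 bp downstream, at the foot of this hill. Of the called genes of array 1 with a matched start, 34.6% had their highest window centred within 500 bp of it, as Fhl5 did, and on array 2 the share was 35.3%. Its lowest window was -0.26, and none of its probes had a GC content of 55% or more.

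**Figure D2:**
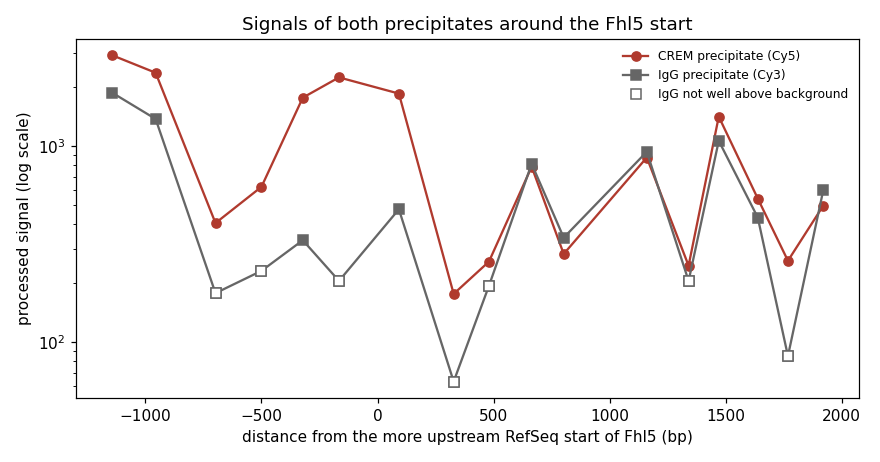
Processed signal on a log scale (vertical axis) of the CREM precipitate (circles) and the IgG precipitate (squares) at the probes of Fhl5, against distance in bp from the more upstream RefSeq start; open squares are IgG signals not well above background. The precipitates part around the start, where CREM reached 2248, and lie closer together downstream of the hill, except at the probe at 1768 bp, where the IgG signal of 85.0 was not well above background against 260.4 with CREM.

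The value of Fhl5 depended on the setting. It remained called under 11 of 13 other settings, between 1.94 and 2.59, but stood at 0.57 with normexp background correction and at 0.38 with probes above background in both channels only. In the latter, the bright probes at the start number 2 within the allowed gap and form no window of their own. With the gap widened to 1000 bp, an alternative added after the data were seen, the bright probes alone gave 2.02. The probe at 25168203, which was measured at 1.59 further downstream, had a dim IgG signal and a bound of -0.26. It lies in the promoter sequence of another RefSeq gene, LOC115489977.

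At Kif17, the gene of the kinesin that moves ACT, the ratio dipped at the start and was moderately high on either side. The probe carrying the full cAMP response element, centred at -83 bp from the start, had 479 with CREM and 1016 with IgG, a log2 ratio of -1.11. The next probe, at 137818423 and 279 bp downstream, had 264 against 1236 and -2.25. Both lie above 55% GC (62.2% and 57.8%). The 2 probes upstream of the dip had 1.08 and 0.90, and the 2 after it had 0.84 and 1.09, all with both channels above background. No 3 of these high probes formed a called window. The window on the IgG side held both dip probes and the probe at 0.84 after them, with a median of -1.11.

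The called window of Kif17 lay downstream (chr4:137820192-137820585), centred 2222.5 bp from the start, at 1.01. Its probes had 0.53, 1.01 and 1.03, the first with a dim IgG signal and a bound of -0.32. On array 1, 32.9% of genes stood as high, and the value was 0.88 with windows of 5 probes and 0.94 with the mean of 3 probes. The value lay at the call threshold itself. The lowest window of Kif17 turned to 0.012 with windows of 5 probes and stood at -0.21 with the GC trend removed. A further 3 probes named for Kif17 lay from 137855736 onwards, formed no window and are not in the plot of probe ratios.

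The acetyltransferase genes Crebbp and Ep300, whose proteins bind phosphorylated CREB factors and acetylate histones, were both called on array 2. Crebbp had 1.05 (chr16:4214405-4214956), a value reached by 32.8% of genes. Its probes had -0.01, 1.05 and 1.08, with CREM signals of 453, 1851 and 2102 against IgG signals of 451, 884 and 981. The 3 called windows of Crebbp joined into 1062 bp, which 19.1% of CREM-side regions on array 2 reached. A different probe of the gene, at 4216773, had 1.496 from 1149 against 402. The core-bearing probe at 4214231, next to the called region, had 431 with CREM against 2865 with IgG, a ratio of 6.73-fold towards IgG. It was part of no window at -1 or less, and the lowest window of Crebbp was -0.71. Crebbp was below 1 with the authors' values (0.89), the mean of 3 probes (0.99) and the GC trend removed (0.94).

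Ep300 had windows far out on both sides. The highest, 1.39 (chr15:81417856-81418371, centred 1469.5 bp downstream of the start), was reached by 18.3% of genes, but rested on 3 probes with dim IgG signals between 69.9 and 202. At their bounds the window stood at -0.44, so no fold is given for it. A second region upstream (chr15:81415022-81415625) did not share this limit. The first 3 of its probes were bright in both channels at 0.57, 1.27 and 1.14, with CREM signals of 1376, 2109 and 3845 against 912, 866 and 1717. With all bounds applied, Ep300 stayed called at 1.14 through this region. It was at 0.98 with the authors' values and 0.79 with windows of 5 probes.

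Between these regions, the start of Ep300 lay on the IgG side. Its lowest window (chr15:81415581-81416262), at -1.92, was the lowest of the 8 genes and 3.78-fold towards IgG. Its probes had -1.65, -1.92 and -2.22, with IgG signals of 1199, 1602 and 8971 against 386, 430 and 1956 with CREM. The IgG-side region covered 1846 bp in 6 windows, a length that 0.649% of IgG-side regions on array 2 reached. The step from 1.14 at 81415393 to -1.65 at 81415581 fell between neighbouring probes with GC contents of 53.3% and 66.7%.

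The CRTC genes encode calcium- and cAMP-regulated coactivators that bind CREB factors, and all 3 lay on array 1. Only Crtc2 was called, at 1.36 (chr3:90058506-90058899; 16.9% of genes stood as high). The probes of this window disagreed, at -1.31, 2.43 and 1.36. The 2.43 came from 1000.5 with CREM against a dim 182 with IgG and is a ratio of at least 3.22-fold. The 1.36 also had a dim IgG signal, with a bound of 1.34. The next probe outwards had 1.19 with both signals bright, 878 against 379. Directly beside them lay the IgG side of Crtc2, where the window of -0.17, -2.67 and -1.31 had a median of -1.31. Its -2.67 came from a dim CREM signal of 79.3, with a bound of -2.34. The whole change of sign took place between probes starting at 90058506 and 90058670, of 77.8% and 41.8% GC. Crtc2 was at 0.16 with normexp, 0.80 with the authors' values and 0.44 with probes bright in both channels.

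Crtc1 and Crtc3 were not called. Crtc1 reached 0.82 (chr8:72963895-72964220), with probes at 1.68, -0.0033 and 0.82, all bright, and 44.9% of genes stood as high. Its single highest probe, centred at -445 bp from the start, had 2948 with CREM against 907 with IgG. At the start itself, 3 probes had -0.9998, -1.50 and -1.92, which gave Crtc1 a lowest window of -1.50. Crtc3 reached only 0.19 (chr7:87838002-87838632), the lowest value of the set, which 91.6% of genes reached or exceeded. Its start lay on the IgG side too, with probes at -1.04, -1.53 and -2.01 from IgG signals of 1121, 694 and 6375 against 555, 244 and 1614 with CREM. This region of 1440 bp was as long as or longer than all but 3.35% of IgG-side regions on array 1. Crtc1 and Crtc3 stayed below 1 under all 13 other settings, between 0.41 and 0.96 and between -0.02 and 0.53.

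Gtf2a1lf, the germ cell TFIIA gene, which the array names Gtf2a1l, was called at 1.16 on array 2 (chr17:89066038-89066464, centred at -1749 bp from the start), as high as 27.5% of genes. Its probes had 0.49, 1.16 and 1.76 along the chromosome, with CREM signals of 315, 299 and 206 against IgG signals of 221, 132 and 60.1. The CREM signal was lowest where the ratio was highest. All 3 IgG signals were dim, and at their bounds the window stood at 0.04. With bounds, the highest window of the gene was 0.79, below the threshold, and the gene was called under 7 of 13 other settings. Probes around its start were near 0, with 0.29, 0.10 and -0.04 (bound -0.14) from -312 bp to 130 bp. Of the 8 genes, Gtf2a1lf had the mildest lowest window, at -0.19.

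The IgG side was common among these genes in the main setting. A window at -1 or less was found at 5 of 8, namely Ep300, Crtc3, Crtc1, Crtc2 and Kif17 (-1.11). On array 1 this was 4 of 5 genes, where 34.4% of all genes had one, and on array 2 it was 1 of 3, where 32.9% did. Among genes with 14 to 26 windows the shares were 35% and 33.8%. The 5 of 8 depended on the setting. It became 0 with normexp and with the GC trend removed, 2 in windows of 5 probes and 3 with the authors' values. The share of all genes on the IgG side under these settings is not given here. These counts therefore have no comparison and do not tell whether the members differ from other genes. In the main setting, windows at -1 or less numbered 14 of 155 (9.03%), against 4.61% and 4.51% of all windows. Neighbouring windows share probes here too, and 6 of the 14 belong to Ep300. Windows on both sides were found at Kif17, Ep300 and Crtc2, 3 of 8, against 12.2% and 12% of all genes. The median lowest window over the 8 genes was -1.21, against -0.77 and -0.74 over all genes. Where a start could be placed, the lowest window of these genes was centred 54 bp (Crtc1), 182 bp (Kif17) and 283.5 bp (Crtc3) downstream, and at -722.5 bp (Ep300). Within 500 bp of a matched start lay 75.6% of such lowest windows on array 1 and 72.8% on array 2.

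GC content moved with the sign of the ratio, and its part in the result was not tested. All 21 used probes of the 8 genes with a GC content of 55% or more had a ratio below 0, with a median of -1.07 and a range of -2.25 to -0.01. Over all probes of that GC content, 91.3% on array 1 and 88.7% on array 2 were below 0, with medians of -0.83 and -0.76. The 184 probes of lower GC content had a median of 0.23, and 29 of them (15.8%) reached 1, against 9.87% and 10.73% of such probes on the arrays. Many of these 29 had dim IgG signals, and most of those fall below 1 at their bounds. The 15.8% was not recomputed at the bounds, nor were the shares of the arrays, so it does not show an excess. Low ratios were not confined to high GC content. Of the 184, 5 (2.72%) were at -1 or less, against 3.01% and 3.27% on the arrays, and they included the lowest probe of all, -2.75 at Crebbp. With the median ratio of each GC bin removed, none of the 8 genes had a window at -1 or less, and the lowest, at Ep300, was -0.93. The share of all genes with such a window in that setting is not given here, so this count has no comparison. Fhl5 kept 2.25 with the bin medians removed. A low ratio at the start of Kif17 or Ep300 does not show that CREM was absent there.

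**Figure D3:**
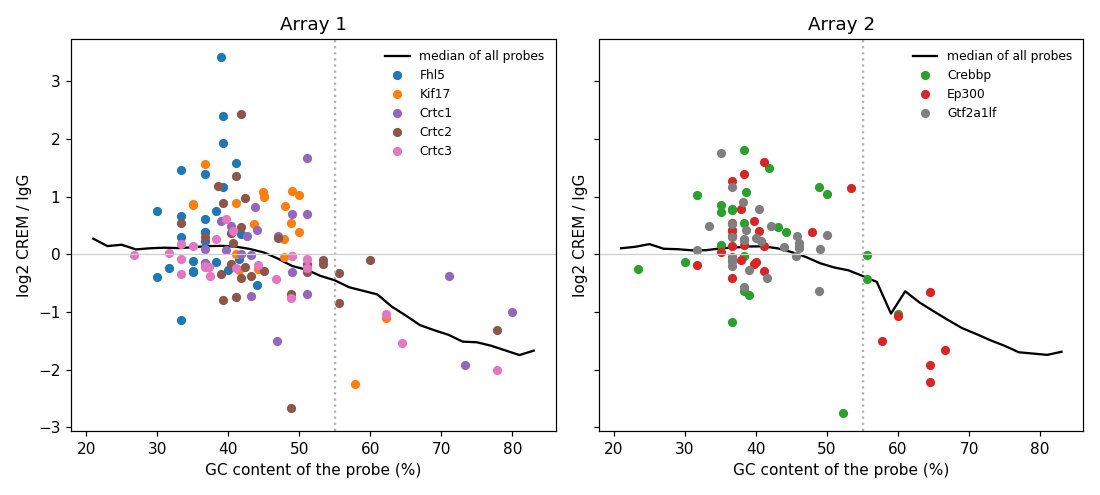
Log2 ratio of CREM over IgG (vertical axis) against the GC content of the probe in percent, for the probes of the 8 genes on each array, with the median of all probes of the array as a line and 55% GC dotted. Every point right of the dotted line lies below 0, and the line falls with GC content on both arrays.

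Other genes of the same pathway were counted from lists of names that were set with earlier results of these data known. In all, 30 of 55 measured genes were called, 11 of 22 on array 1 (33.3% of all genes there) and 19 of 33 on array 2 (35.6% of all genes there), with a median highest window of 1.10. IgG-side windows were also found at 30 of the 55, against 34.4% and 32.9% of all genes on the arrays. Of the CREB family factors, 2 of 4 were called, with Atf1, an activator of cAMP-responsive genes, highest at 1.10 and Creb1 lowest at 0.62. Crem itself stood at 0.63.

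Of the other FHL genes, relatives of Fhl5 with LIM domains, 2 of 3 were called, both on array 2, where 35.6% of all genes were. Fhl4, which is active in testis, was highest at 1.25, in a window with no probe bright in both channels, and Fhl2 was lowest at 0.38. Fhl5 was above each of them by over 1 on the log2 scale. Of the genes of kinesin-2 motors and their accessory subunit, 2 of 4 were called, both on array 1, where 33.3% of all genes were. Their values ran from 1.29 at Kif3b to -0.04 at Kif3c, and the other called gene was that of the accessory subunit, at 1.23. All 3 probes at Kif3b were bright in both channels, and at 1.16 to 1.46 they spanned a narrower range than those of Kif17.

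Over all genes, 33.3% on array 1 and 35.6% on array 2 were called. Of other lysine acetyltransferases and p160 partners, 3 of 7 were called (0 of 2 and 3 of 5 on the arrays), with Kat5 highest at 2.63 and Ncoa2 lowest at 0.71. Kat5 encodes the catalytic subunit of the NuA4 complex, and its window included a probe at -0.35. Kinases and phosphatases that act on CREB or CRTC proteins were called at 13 of 21 (5 of 8 on array 1 and 8 of 13 on array 2). Prkar1a, a regulatory subunit of protein kinase A, was highest at 3.13, though 1 of its 3 probes was bright in both channels and another stood at -0.32. Ppp3ca, a catalytic subunit of calcineurin, was lowest at 0.37. Genes of the TBP, TFIIA and TFIID group reached the threshold at 8 of 16 (3 of 7 on array 1 and 5 of 9 on array 2), and their median was 1.24. Taf11 was highest at 2.78 with all 3 probes bright (1.12 to 2.97), and Tbpl2, the oocyte relative of Tbpl1, was lowest at 0.33. A window on the IgG side was found at 4 of these 16 genes, against 34.4% and 32.9% of all genes. In the other lists such windows were more frequent, at 15 of 21 kinases and phosphatases and 4 of 7 acetyltransferases and p160 partners. They were also found at 3 of 4 kinesin-2 genes, 2 of 3 FHL genes and 2 of 4 CREB family factors.

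**Figure D4:**
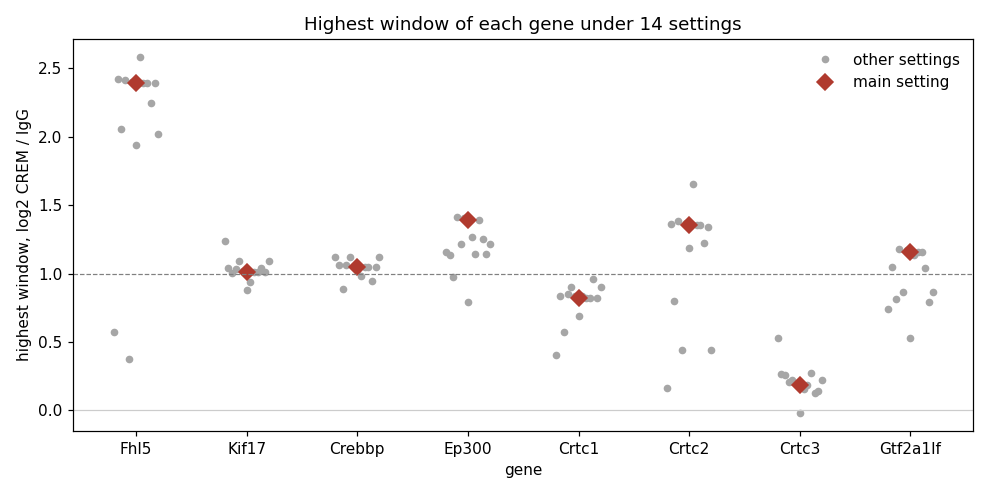
Highest window of each of the 8 genes as log2 of CREM over IgG (vertical axis) in the main setting (diamonds) and under 13 other settings (grey points), with the call threshold of 1 dashed. Fhl5 lies near or above 2 except at 0.57 and 0.38, Crebbp and Kif17 stay near the threshold, and Crtc1 and Crtc3 stay below it throughout.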

How the data were processed

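CREM and IgG precipitates of mouse germ cells were compared on 2 arrays with 1 hybridisation each. Per the file headers, Agilent Feature Extraction 10.7.1.1 made the spot values, on mm9 positions. The deposited intensity columns are background-subtracted and dye-normalised processed signals, and the mean and local background signals as scanned. Per the file headers, LogRatio is log10 of processed Cy5 over Cy3 with its error (printed on the log2 scale), and other deposited columns are flags (other than measurements). Over measured probes, LogRatio differed from log10 of the processed signals' ratio by at most 0.498 on array 1 and 0.457 on array 2. The scanner errors given here belong to LogRatio, while the ratios were computed from the processed signals. The authors' deposited log2 values were recomputed from mean minus background signals with loess in file order, to within 5e-08. R 2.10.1 and limma stand in the submitters' processing notes.

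Ratios were log2 of processed Cy5 over Cy3, centred on each array's median. Control and outlier spots, probes without a position and probes dim in both channels were left out (10 of 215 probes of the 8 genes). A window's gene is that of its middle probe. Starts were placed by exact match of probes in RefSeq promoter sequences (GRCm38.p6), and 6 of the 8 genes had one. Exons and introns are not given, as no mm9 annotation was used here. Gene names numbered 17833, of which 13983 are current RefSeq symbols and 2630 were updated through a synonym.

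The members and lists were chosen with earlier results of these data known. Named genes are the members, Crem, Creb1 and Atf1, and the highest and lowest gene of each list, besides LOC115489977. The settings tried are given in the closing section. Windows were tested on simulated data. Python 3.11.15, R 4.3.3 and limma 3.58.1 were used.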

Additional observations from a re-analysis of the deposited data

How the results depend on the processing

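Each array was hybridised 1 time, so dye, antibody and the spread between precipitations cannot be told apart, and dim IgG signals limit the ratios. No paired analysis was possible because each array holds a single hybridisation and the result comes from no test. Against 6 called members, 2886 and 3080 called genes on arrays 1 and 2, 30 called related genes, a highest member window of 2.39 and a lowest of -1.92, the settings below gave other values, and the cause was not tested unless stated. With normexp background correction (offset 50), 3 members (median 0.66, highest 1.24 at Kif17, lowest -0.998), 17 related genes and 881 and 1921 genes were called. With the authors' values, 2 members (highest 2.06, lowest -1.52), 17 related genes and 1555 and 1445 genes were called. With probes above background in both channels only, 3 members (highest 1.22 at Ep300) and 1689 and 1865 genes were called. In windows of 5 probes, 3 members (highest 1.94) and 1584 and 1752 genes were called, and the lowest window of Kif17 turned to 0.012. A threshold of 1.5, stricter by construction, left 1 member, 15 related genes and 1113 and 1331 genes. Removing the GC trend gave a lowest window of -0.93. After seeing the data, dim probes at their bound (1769 and 1920 genes called) and bright probes with gaps up to 1000 bp (highest member window 2.02, 1799 and 1956 genes) were added. Loess, no centring, no dim filter, the mean of 3 probes, gaps of 300 and 1000 bp and a threshold of 0.8 kept all counts within 1.5 times. Of the windows of single members under other settings, 169 moved by less than the control-spot SD and 38 by more, besides the lowest window of Kif17. In windows of 5 probes, the highest window of Crtc3 (0.19) also crossed 0, to -0.02, and so did the lowest of Gtf2a1lf (-0.19), to 0.13, both by less than that SD.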
